A study of Mus musculus with 28 samples.

Results

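H19 and Igf2 are a pair of neighbouring imprinted genes, and both of the 2 genes were rows of a table of 17342 genes measured by RNA-seq in mouse embryonic stem cells (ESCs). They were chosen by name, with their levels across the libraries known from an earlier reading of the same table, so their levels and differences are given as a description with no test. Each value passed the filter on low values in all 7 libraries.

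The cells carried altered forms of Tet2, a dioxygenase that oxidises 5-methylcytosine in DNA, in a study of the functions of Tet2 beyond catalysis. Tet2-KO cells carry a knockout of Tet2 and were measured as 2 clones. Tet2-Mut cells carry a mutant Tet2 whose allele the labels do not describe further, also as 2 clones. Tet2-WT cells carry the wild-type gene and were measured as 3 independent ESC samples. All were of the V6.5 strain, a male mix of 129 and C57BL/6, and were grown in serum and LIF. They were taken off feeder cells before the RNA was harvested from gelatin-coated plates, so a remainder of feeder RNA is possible in each library. A clone is a single derived line, so each mutant group rests on 2 lines. The p-values given for other genes set group differences against the spread between these 7 libraries, an estimate partly shared across genes.

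H19 makes a long noncoding RNA that is expressed from the maternal chromosome, and Igf2 makes a growth factor, insulin-like growth factor 2, that is expressed from the paternal one. Both genes draw on shared enhancers on the far side of H19. A control region upstream of H19 decides which gene reaches them: the unmethylated maternal copy binds the insulator protein CTCF, and methylation of the paternal copy keeps CTCF away. H19 is also the host of a microRNA, miR-675, and an Igf2 intron is the host of miR-483. The gene counts used here sum both parental alleles, so allele-specific expression was not measured.

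On the mm10 build (GRCm38.p6), H19 lies on chromosome 7 at 142575530 to 142578146 and Igf2 at 142650768 to 142666816, with 72.6 kb between them. The microRNAs inside both genes are printed below because they are the short products that each transcript carries besides its own function. They are RefSeq sequences of GRCm38.p6, all on the minus strand, written 5′ to 3′. In the mature sequences the capitals mark the seed (bases 2 to 8), the stretch that pairs with targets; in the hairpins they mark the mature arms. The microRNAs themselves are not rows of the table, and no level is given for them.
mmu-miR-675-5p: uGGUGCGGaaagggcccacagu
mmu-miR-675-3p: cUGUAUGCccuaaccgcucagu
Mir675 hairpin: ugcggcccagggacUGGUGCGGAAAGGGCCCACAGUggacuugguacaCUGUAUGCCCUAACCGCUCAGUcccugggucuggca
mmu-miR-483-5p: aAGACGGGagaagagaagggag
mmu-miR-483-3p: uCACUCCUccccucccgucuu
Mir483 hairpin: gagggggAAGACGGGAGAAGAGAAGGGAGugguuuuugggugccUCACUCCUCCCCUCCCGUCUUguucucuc

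The Mir675 hairpin spans chr7:142577064-142577147, inside H19, and the Mir483 hairpin spans chr7:142654924-142654996, inside Igf2. The 4 mature sequences have 4 different seeds, so none of them falls into a shared seed group.

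The libraries held 41.9 M to 58.5 M reads assigned to genes. Tet2 itself, which checks the knockout label, had normalized counts of 4624 and 5206 in the Tet2-KO clones, against 9992 and 13181 in the Tet2-Mut clones and 10343, 10244 and 12074 in the Tet2-WT samples. It fell by 1.15 on the log2 scale in Tet2-KO against Tet2-WT (SE 0.12, limma adjusted p = 0.00522) and by 1.23 in Tet2-KO against Tet2-Mut (SE 0.13, limma adjusted p = 0.00382). Between Tet2-Mut and Tet2-WT it differed by 0.08 (limma adjusted p = 0.763), so its level does not tell these labels apart. The transcript was therefore still counted in the Tet2-KO clones; which part of the gene was removed is not given in the labels. Pou5f1, a core pluripotency factor and 1 of 14 ESC markers described below, was abundant in every library. It stood at 52412 and 58247 in Tet2-KO, 59096 and 72697 in Tet2-Mut, and 52319, 55480 and 58392 in Tet2-WT. The summed level of the 14 markers was less even and was lowest in Tet2-KO replicate 1.

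H19 was low in both Tet2 mutant genotypes. A normalized count is the number of reads of a gene divided by the size factor of its library, and it can be compared between libraries. H19 had normalized counts of 285 and 542 in the Tet2-KO clones, 126 and 112 in the Tet2-Mut clones, and 3330, 2534 and 2752 in the Tet2-WT samples. The 3 groups did not overlap: every Tet2-WT sample lay above both Tet2-KO clones, and both Tet2-KO clones lay above both Tet2-Mut clones. In the deposited table these values stand for 276 and 524 reads in Tet2-KO, 122 and 116 reads in Tet2-Mut, and 4002, 2692 and 2332 reads in Tet2-WT. Each value thus rests on at least 116 reads.

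H19 averaged 413 ± 182 in Tet2-KO, 119 ± 9.70 in Tet2-Mut and 2872 ± 411 in Tet2-WT (SD, n = 2, 2 and 3). The Tet2-WT mean was 6.95 times the Tet2-KO mean and 24.2 times the Tet2-Mut mean, and the Tet2-KO mean was 3.48 times the Tet2-Mut mean. As differences of mean log2(normalized count + 1), the scale of all log2 values here, these are -2.86 for Tet2-KO minus Tet2-WT, -4.58 for Tet2-Mut minus Tet2-WT and 1.72 for Tet2-KO minus Tet2-Mut. The SD of H19 between libraries of a group, pooled over the groups, was 0.36 on that scale. It was largest between the Tet2-KO clones (0.65), against 0.12 in Tet2-Mut and 0.20 in Tet2-WT. In a bulk library, fewer cells with the transcript and less transcript per cell cannot be told apart.

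Among the 17338 genes compared, the H19 difference was the 25th lowest for Tet2-KO against Tet2-WT and the 4th lowest for Tet2-Mut against Tet2-WT. For Tet2-KO against Tet2-Mut it was the 272nd highest. Over all 7 libraries H19 had a range of 4.88 on the log2 scale, the 20th widest of 13523 genes with a mean normalized count of at least 50.

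Igf2 gave another picture, with wide spread inside each group and none of the separation seen for H19. Its normalized counts were 522 and 274 in the Tet2-KO clones, 141 and 313 in the Tet2-Mut clones, and 320, 155 and 185 in the Tet2-WT samples. Every pair of groups overlapped: the upper Tet2-Mut clone and the Tet2-WT replicate 1 both lay above the lower Tet2-KO clone. The counts rest on 506 and 265 reads in Tet2-KO, 137 and 324 reads in Tet2-Mut, and 384, 165 and 157 reads in Tet2-WT.

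Igf2 averaged 398 ± 176 in Tet2-KO, 227 ± 121 in Tet2-Mut and 220 ± 87.5 in Tet2-WT (SD, n = 2, 2 and 3). The log2 differences were 0.85 for Tet2-KO minus Tet2-WT, 0.00 for Tet2-Mut minus Tet2-WT and 0.85 for Tet2-KO minus Tet2-Mut, beside a pooled SD between libraries of 0.65. The Tet2-KO difference from Tet2-WT was 0.39 when Tet2-KO replicate 1 was left out and 1.31 when replicate 2 was, so a single clone sets its size. For Tet2-Mut against Tet2-WT the sign itself depended on the clone, at 0.57 when Tet2-Mut replicate 1 was left out and -0.57 when replicate 2 was. Among the Tet2-WT samples alone Igf2 ranged over 1.04 on the log2 scale, a wider range than 98.4% of the 13523 genes with a mean of at least 50, where the H19 range of 0.39 was wider than 83.2%.

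**Figure D1:**
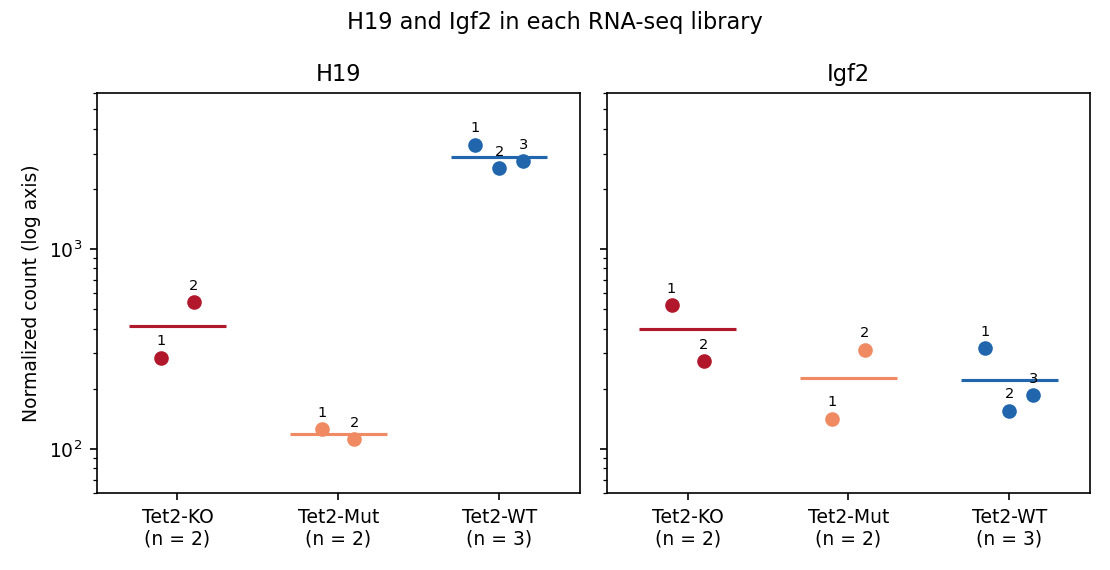
Normalized counts of H19 (left) and Igf2 (right) on a log axis in the Tet2-KO (n = 2), Tet2-Mut (n = 2) and Tet2-WT (n = 3) libraries; points are libraries with their replicate number and bars are group means. The H19 points of the 3 groups are separate, with Tet2-WT at 2534 to 3330 and Tet2-Mut at 112 to 126, and the Igf2 points of the 3 groups overlap.

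The levels of both genes can be placed within the table's expression range, where the median gene had a normalized count of 583 to 612 depending on the library. This ranking is not corrected for transcript length. H19 exceeded 40.7% and 48.6% of genes in the Tet2-KO clones and 32.6% and 32.0% in the Tet2-Mut clones, against 80.5%, 75.6% and 77.0% in the Tet2-WT samples. It thus stood above more than 75% of the table in each Tet2-WT sample and below the median in each mutant clone. Igf2 exceeded 48.0% and 40.4% of genes in Tet2-KO, 33.9% and 42.4% in Tet2-Mut, and 41.8%, 34.5% and 36.4% in Tet2-WT, below the median in all 7 libraries.

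The pair can also be read as a ratio within each library, where the size factor cancels. Because transcript lengths were not used, the size of the ratio says nothing of molar amounts, and only its difference between libraries is informative. H19 over Igf2 was 0.545 and 1.98 in the Tet2-KO clones, 0.891 and 0.358 in the Tet2-Mut clones, and 10.4, 16.3 and 14.9 in the Tet2-WT samples. All 4 mutant clones lay below all 3 Tet2-WT samples, and the Tet2-KO and Tet2-Mut clones overlapped.

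The mean ratio was 1.26 ± 1.01 in Tet2-KO, 0.624 ± 0.377 in Tet2-Mut and 13.9 ± 3.07 in Tet2-WT (SD, n = 2, 2 and 3). The log2 difference of H19 minus that of Igf2 was -3.71 for Tet2-KO against Tet2-WT and -4.58 for Tet2-Mut against Tet2-WT. It was -2.78 and -4.63 in the first when Tet2-KO replicate 1 or 2 was left out, and -5.23 and -3.93 in the second when Tet2-Mut replicate 1 or 2 was. For Tet2-KO against Tet2-Mut it was 0.87, and its sign rested on a clone, at -0.05 when Tet2-KO replicate 2 was left out and 1.80 when replicate 1 was. It was 1.53 and 0.22 there when Tet2-Mut replicate 1 or 2 was left out. Within genotypes the members did not move together in every case. The Tet2-KO clone with less H19 had more Igf2, and the Tet2-Mut clone with less H19 likewise had more Igf2, while among the Tet2-WT samples replicate 1 was highest in both genes and replicate 2 lowest in both. With 2 or 3 libraries a group, no relation between the genes can be tested within a genotype.

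Transcripts of fibroblast markers, which feeder cells can carry, moved with the genotype and are set beside these values. Which cells in the cultures made them was not measured. The summed normalized count of 23 measured fibroblast markers was 26379 and 14887 in the Tet2-KO clones, 12078 and 10623 in the Tet2-Mut clones, and 9327, 9375 and 9009 in the Tet2-WT samples. The list had 25 genes, of which Dcn and Lum were not in the table, and none of the measured ones was at 0 in any library. All 23 were higher on average in Tet2-KO than in Tet2-WT. Of them, 8 rose past the test, 34.8% beside 3% of all genes tested, and 0 fell. Tagln, a smooth muscle and fibroblast actin-binding protein, rose by 2.27 (SE 0.30, limma adjusted p = 0.00768). Without Tet2-WT replicate 3 the count was 0 (17 of the 23 had an unadjusted p under 0.05), and it was 1 without Tet2-KO replicate 1 or Tet2-WT replicate 1 and 2 without Tet2-WT replicate 2. It was 16 without Tet2-Mut replicate 1, 15 without Tet2-Mut replicate 2 and 12 without Tet2-KO replicate 2. The count was 11 in edgeR, beside 1110 genes in all, and 15 in DESeq2, beside 1992. With no mean trend in the prior limma called 0 (16 at an unadjusted p under 0.05), beside 19 genes in all.

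In Tet2-Mut against Tet2-WT, limma called 0 of the 23 fibroblast markers, beside 3.43% of all genes tested. At an unadjusted p under 0.05 stood 6 of the 23, beside 3651 of the 17338 genes tested. The 23 markers had a median log2 difference of 0.46, with 19 positive. By edgeR 0 of them were called, and by DESeq2 1. Limma called 3 without Tet2-Mut replicate 1 and 1 without either Tet2-KO replicate. The test of Tet2-KO against Tet2-Mut gave 4 that rose, beside 2.64% of all genes tested, and 0 that fell, with 2 called without Tet2-KO replicate 1, Tet2-Mut replicate 2 or any 1 Tet2-WT sample, 7 without Tet2-KO replicate 2 and 8 without Tet2-Mut replicate 1. The Tet2-KO clone with the higher fibroblast sum, replicate 1, was also the one with more Igf2 and less H19. In the Tet2-Mut pair the clone with the higher fibroblast sum had less Igf2. In the Tet2-Mut and the Tet2-KO clones alike, H19 was below every Tet2-WT sample and the fibroblast sum was above every Tet2-WT sample. The part that feeder RNA plays in the levels of H19 and Igf2 was not tested.

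**Figure D2:**
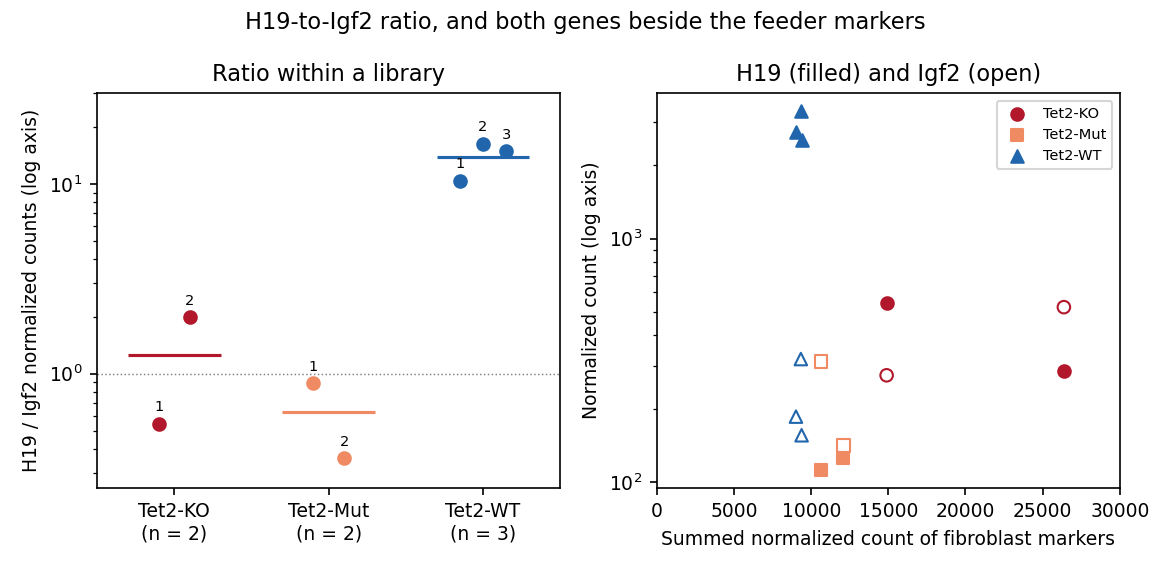
Left, the ratio of H19 to Igf2 normalized counts on a log axis per library (points with replicate numbers, bars for means; n = 2 Tet2-KO, 2 Tet2-Mut, 3 Tet2-WT), with a dotted line at equal counts. Right, normalized counts of H19 (filled) and Igf2 (open) on a log axis against the summed normalized count of 23 fibroblast markers; Tet2-KO replicate 1 stands at 26379, and the Tet2-WT ratios of 10.4 to 16.3 lie above those of all 4 mutant clones.

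Other cell types that an ESC culture can hold were followed in the same way. The summed level of 12 measured trophoblast markers was 26682 and 21544 in Tet2-KO, 11612 and 12274 in Tet2-Mut, and 17401, 17424 and 15496 in Tet2-WT. Their median log2 difference was -0.09 for Tet2-KO minus Tet2-WT, with 6 of the 12 positive, so the higher Tet2-KO sum was not shared by the list as a whole. The median was -0.79 for Tet2-Mut minus Tet2-WT, with 1 positive, and 1.09 for Tet2-KO minus Tet2-Mut, with 11 positive. Of the 12 trophoblast genes, 3 rose in Tet2-KO against Tet2-WT (Cdx2, Krt8 and Krt18), 25% beside 3% of all genes tested, and 0 fell. In Tet2-Mut against Tet2-WT, 4 fell (Eomes, Hand1, Tfap2c and Fgfr2), 33.3% beside 1.98% of all genes tested, and 0 rose. Tet2-KO against Tet2-Mut had 6 that rose (Cdx2, Eomes, Hand1, Krt8, Krt18 and Fgfr2), 50% beside 2.64%, and 0 that fell, with 5 to 8 called when 1 library was left out, 6 called by edgeR and 7 by DESeq2. The counts against Tet2-WT were 0 and 0 without Tet2-WT replicate 1, with 3 and 6 of the 12 at an unadjusted p under 0.05, and 1 and 0 without Tet2-WT replicate 2 (7 at an unadjusted p under 0.05 beside the 0). Without Tet2-WT replicate 3 they were 0 (3 at an unadjusted p under 0.05) and 2. With all libraries edgeR called 3 and 3 against Tet2-WT, beside 1110 and 582 genes in all, and DESeq2 called 3 and 6, beside 1992 and 1555. The part of such cells in the levels of H19 and Igf2 was not tested.

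Of 11 measured primitive endoderm markers limma called 0 in Tet2-KO against Tet2-WT and 0 in Tet2-Mut against Tet2-WT. The shares of all genes tested were 5.91% and 3.43%, so counts of 0 in so short a list say little. In each comparison 1 of the 11 had an unadjusted p under 0.05, beside 4019 and 3651 of the 17338 genes tested. The median log2 difference of the 11 was -0.34 for Tet2-KO minus Tet2-WT, with 3 positive. For Tet2-Mut minus Tet2-WT it was 0.00, with 6 positive. The edgeR counts were 0 and 0, and those of DESeq2 were 0 and 1. Without Tet2-KO replicate 1 limma called 1 in Tet2-Mut against Tet2-WT. Their summed level was 4323 and 5487 in Tet2-KO, 4845 and 6175 in Tet2-Mut, and 4854, 5327 and 6208 in Tet2-WT. The 3 listed markers Afp, Ttr and Hnf4a were not in the table. The summed level of 14 ESC markers was 308773 and 372106 in Tet2-KO, 364804 and 381011 in Tet2-Mut, and 378499, 374036 and 380737 in Tet2-WT. Their median log2 difference was -0.17 for Tet2-KO minus Tet2-WT, with 1 of the 14 positive. For Tet2-Mut minus Tet2-WT it was -0.09, with 6 positive. Of the 14, 2 fell in Tet2-KO against Tet2-WT (Tbx3 and Tdgf1) and 2 fell in Tet2-Mut against Tet2-WT (Nanog and Tbx3), 14.3% in each beside 2.91% and 1.98% of all genes tested, and 0 rose. Without Tet2-WT replicate 1 limma called 0 in both comparisons, with 5 and 4 at an unadjusted p under 0.05. The counts were 1 and 0 without Tet2-WT replicate 2, 0 and 1 without Tet2-WT replicate 3 (4 at an unadjusted p under 0.05 beside each 0), and 1 and 4 without Tet2-KO replicate 1. They were 7 and 4 without Tet2-KO replicate 2, 4 and 4 without Tet2-Mut replicate 1, and 4 and 1 without Tet2-Mut replicate 2. With all libraries edgeR called 2 and 1, and DESeq2 called 4 and 5.

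The genes around H19 on chromosome 7 went in both directions. The table held 26 other genes within 1 Mb of H19, out of 77 RefSeq genes there in all with the pair. Their median log2 difference was 0.02 for Tet2-KO minus Tet2-WT, 0.01 for Tet2-Mut minus Tet2-WT and 0.04 for Tet2-KO minus Tet2-Mut, beside medians over all genes tested of -0.00, 0.01 and 0.00. In each comparison limma called 1 of the 26 (3.85%), beside 5.91%, 3.43% and 6.19% of all genes tested. By direction these were 1 lower in Tet2-KO against Tet2-WT beside 2.91%, 1 higher in Tet2-Mut against Tet2-WT beside 1.44%, and 1 lower in Tet2-KO against Tet2-Mut beside 3.55%. In each comparison 14 of the 26 had a positive difference. Their differences in Tet2-KO against Tet2-WT ran from -3.41 (Muc2) to 1.24 (Lsp1, a leukocyte actin-binding protein gene named after its values were seen). At an unadjusted p under 0.05 stood 8, 10 and 5 of the 26 in the 3 comparisons, beside 4019, 3651 and 3499 of the 17338 genes tested. In the same order edgeR called 2, 1 and 1 of the 26, beside 1110, 582 and 1054 genes in all. DESeq2 called 5, 5 and 2, beside 1992, 1555 and 1808 genes in all. These shares of all genes move with single libraries. The 1025 genes called in Tet2-KO against Tet2-WT were 155 without Tet2-KO replicate 1, 85 to 99 without any 1 Tet2-WT sample, and 2160 and 2143 without Tet2-Mut replicate 1 and 2. The 594 genes called in Tet2-Mut against Tet2-WT were 7, 6 and 123 without Tet2-WT replicate 1, 2 and 3, 219 without Tet2-Mut replicate 2 and 2198 without Tet2-Mut replicate 1. The 1074 genes called in Tet2-KO against Tet2-Mut were 552 without Tet2-KO replicate 1, 530 to 661 without any 1 Tet2-WT sample and 2679 without Tet2-Mut replicate 1.

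The neighbour that fell in Tet2-KO against Tet2-WT was Muc2, a gel-forming mucin gene at -821 kb from H19, on the H19 side of the pair. Muc2 had normalized counts of 2.06 and 8.27 in Tet2-KO and 14.4 and 5.79 in Tet2-Mut, against 59.1, 47.1 and 62.6 in Tet2-WT. It was low in all 4 mutant clones, and the groups did not overlap in either comparison with Tet2-WT. The change in Tet2-KO was -3.41 (SE 0.61, limma adjusted p = 0.0185), and in Tet2-Mut the difference was -2.47 (SE 0.61, limma adjusted p = 0.0635). At these low counts the Tet2-KO change depended on the pseudocount, at -3.57 with 0.5 and -2.15 with 10. It was -2.62 when Tet2-KO replicate 1 was left out and -4.21 when replicate 2 was, and the Tet2-Mut difference was -3.07 to -1.88 with 1 library left out. The Tet2-KO call was lost without Tet2-KO replicate 1 and without any 1 of the Tet2-WT samples (limma adjusted p up to 0.113), where limma called 0 of the 26 and 4 to 7 had an unadjusted p under 0.05; edgeR and DESeq2 on all libraries called 2 and 5. Without either Tet2-Mut replicate 5 of the 26 neighbours were called in Tet2-KO against Tet2-WT, and 2 without Tet2-KO replicate 2.

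The neighbour that changed in the other comparisons was Phlda2, a maternally expressed imprinted gene that restrains growth of the placenta and lies 923 kb from H19. Phlda2 had normalized counts of 1792 and 1940 in Tet2-KO, 3165 and 3768 in Tet2-Mut, and 2433, 2271 and 2382 in Tet2-WT. It was highest in the Tet2-Mut clones, the clones with the lowest H19. It rose by 0.55 in Tet2-Mut against Tet2-WT (SE 0.09, limma adjusted p = 0.0249) and fell by 0.89 in Tet2-KO against Tet2-Mut (SE 0.10, limma adjusted p = 0.00417). In Tet2-KO against Tet2-WT it differed by -0.34 (limma adjusted p = 0.0657). The Tet2-Mut rise lost its call without Tet2-Mut replicate 2 or without any 1 Tet2-WT sample (limma adjusted p up to 0.148), and the fall in Tet2-KO against Tet2-Mut kept it with each library left out. In Tet2-Mut against Tet2-WT limma called 0 neighbours without any 1 Tet2-WT sample, with 6 to 9 at an unadjusted p under 0.05, and edgeR and DESeq2 on all libraries called 1 and 5. In the same comparison 4 neighbours were called without either Tet2-KO replicate and 5 without Tet2-Mut replicate 1. In Tet2-KO against Tet2-Mut, 2 were called without Tet2-Mut replicate 1 and 3 without Tet2-Mut replicate 2.

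The nearest measured genes on the H19 side were Mrpl23, a mitochondrial ribosomal protein gene at -34.8 kb, and Tnnt3, a troponin gene of fast skeletal muscle at -59.3 kb. Mrpl23 had normalized counts of 1277 and 1780 in Tet2-KO, 1673 and 1646 in Tet2-Mut, and 2235, 2015 and 2013 in Tet2-WT. All 4 mutant clones lay below all 3 Tet2-WT samples, by 0.47 in Tet2-KO (log2 difference -0.47, limma adjusted p = 0.072) and 0.33 in Tet2-Mut (log2 difference -0.33, limma adjusted p = 0.204), and neither passed the test. Tnnt3 had 18.6 and 66.2 in Tet2-KO, 16.5 and 7.72 in Tet2-Mut, and 52.4, 43.3 and 53.1 in Tet2-WT. The Tet2-KO clones lay on both sides of the Tet2-WT samples for Tnnt3, and the Tet2-Mut clones lay below them (log2 difference -2.03, limma adjusted p = 0.0865).

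On the Igf2 side lies Igf2os, a noncoding gene named as antisense to Igf2 that overlaps it by 7137 bases. Igf2os had normalized counts of 55.7 and 23.8 in Tet2-KO, 16.5 and 32.8 in Tet2-Mut, and 23.3, 6.59 and 26.0 in Tet2-WT. Its higher clone within each mutant genotype was also the higher one for Igf2. Among the Tet2-WT samples Igf2os was highest in replicate 3 and Igf2 in replicate 1, and both were lowest in replicate 2. The labels give no strand setting for the authors' counting, so reads of Igf2 and Igf2os cannot be told apart where they overlap. The next gene, Ascl2, encodes a trophoblast transcription factor, is maternally expressed in the placenta and lies 389 kb from H19. Ascl2 had 237 and 321 in Tet2-KO, 224 and 129 in Tet2-Mut, and 302, 290 and 365 in Tet2-WT, with no call in any comparison (lowest limma adjusted p = 0.0924, for Tet2-Mut against Tet2-WT). Between H19 and Igf2 the table held 1 gene, the noncoding Gm33148, at 24.8 and 12.4 in Tet2-KO, 0 and 23.2 in Tet2-Mut, and 20.8, 15.1 and 23.6 in Tet2-WT.

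**Figure D3:**
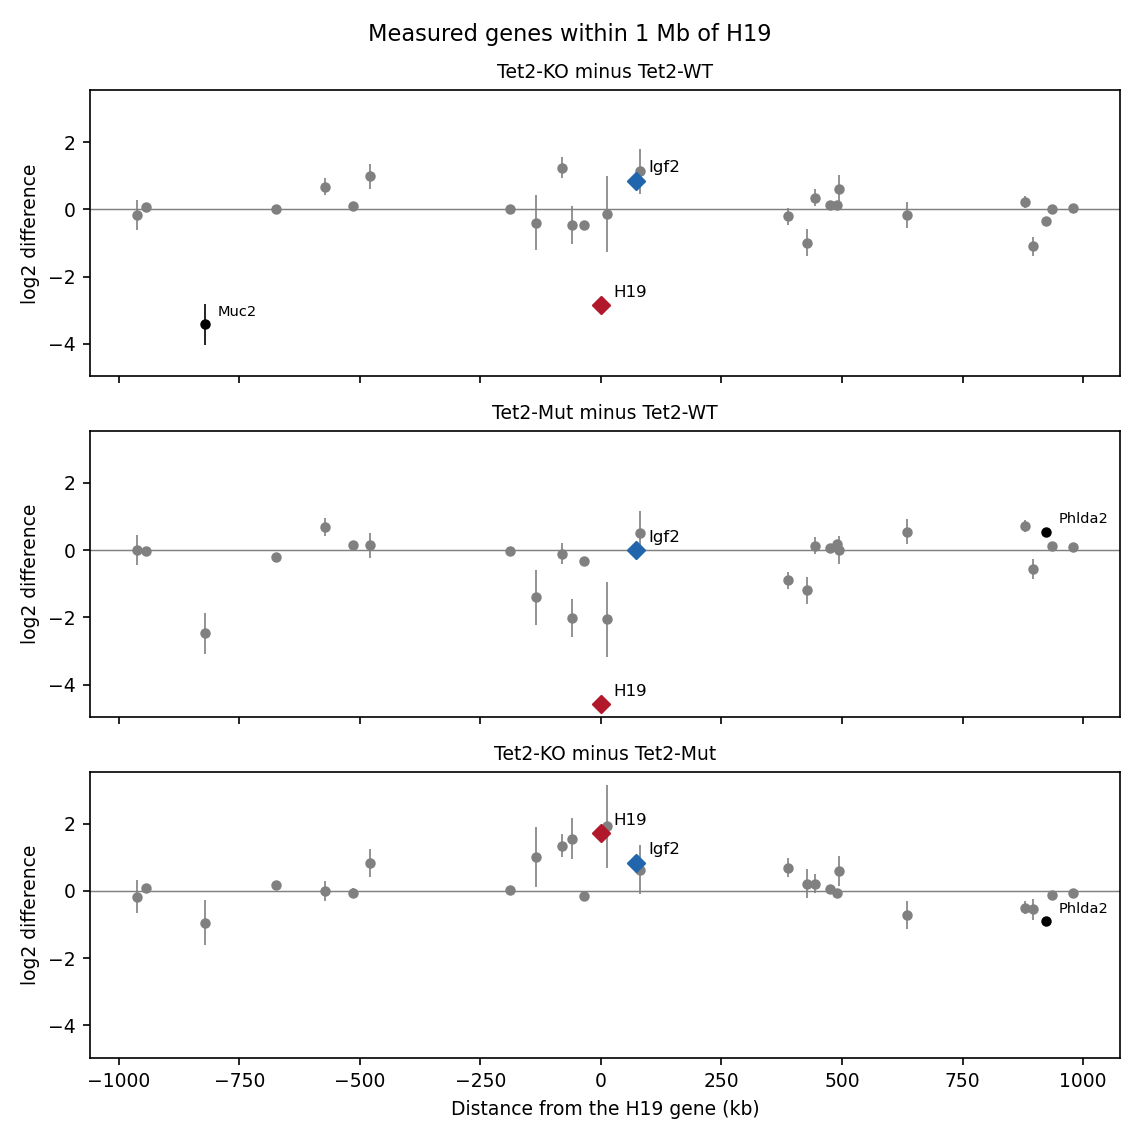
Log2 differences of the 26 other measured genes (circles, ± SE of the fit; black where the limma adjusted p was under 0.05) and of H19 and Igf2 (diamonds, no test) against distance from H19 in kb, for Tet2-KO minus Tet2-WT, Tet2-Mut minus Tet2-WT and Tet2-KO minus Tet2-Mut. The neighbours centre on medians of 0.02, 0.01 and 0.04, with H19 at -2.86, -4.58 and 1.72.

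The other genes of the pathway in which Igf2 acts were higher on balance in Tet2-KO cells. The list had 23 genes beside Igf2 itself, of which 19 were measured and 4 (Ins1, Ins2, Igfbp1 and Pappa2) were not in the table. In Tet2-KO against Tet2-WT, 5 of the 19 rose and 0 fell, 26.3% beside 5.91% of all genes tested, and their median log2 difference was 0.51 beside -0.00 over all genes. In Tet2-Mut against Tet2-WT, 0 rose and 1 fell, 5.26% beside 3.43%, with a median of -0.03 beside 0.01. In Tet2-KO against Tet2-Mut, 3 rose and 1 fell, 21.1% beside 6.19%, with a median of 0.82 beside 0.00. The first and the last of these comparisons share the Tet2-KO clones.

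Among ligands and receptors, Igf1r, the receptor through which Igf1 and Igf2 signal, had normalized counts of 2470 and 2042 in Tet2-KO, 1461 and 1481 in Tet2-Mut, and 1646, 1572 and 1506 in Tet2-WT. Both Tet2-KO clones were above all other libraries. Igf1r rose by 0.51 in Tet2-KO against Tet2-WT (SE 0.10, limma adjusted p = 0.0241) and by 0.61 against Tet2-Mut (SE 0.11, limma adjusted p = 0.0141). Igf2r, the receptor that takes up and degrades Igf2, had 6212 and 5838 in Tet2-KO, 5767 and 4844 in Tet2-Mut, and 7793, 7103 and 6553 in Tet2-WT. It was below Tet2-WT in all 4 mutant clones and fell in Tet2-Mut by 0.43 (SE 0.10, limma adjusted p = 0.0492), with -0.24 in Tet2-KO (limma adjusted p = 0.175). The insulin receptor gene Insr fell by 0.67 in Tet2-KO against Tet2-Mut (SE 0.15, limma adjusted p = 0.0318), with 1077 and 790 in Tet2-KO and 1519 and 1411 in Tet2-Mut, beside 1158, 1063 and 1176 in Tet2-WT. Igf1, the other growth factor of the family, had low counts, at 31.0 and 47.6 in Tet2-KO, 12.4 and 1.93 in Tet2-Mut, and 44.9, 35.8 and 11.8 in Tet2-WT, and passed no test.

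The smallest adjusted p of the pathway in both comparisons of the knockout belonged to a binding protein. Igfbp3, which carries IGFs outside cells, had 4737 and 3490 in Tet2-KO, 1197 and 1274 in Tet2-Mut, and 1133, 1339 and 1037 in Tet2-WT. It rose by 1.80 in Tet2-KO against Tet2-WT (SE 0.15, limma adjusted p = 0.00348) and by 1.72 against Tet2-Mut (SE 0.16, limma adjusted p = 0.00382). Igfbp7, a secreted relative that binds IGFs weakly and was named after its values were seen, had 175 and 162 in Tet2-KO, 94.7 and 56.0 in Tet2-Mut, and 78.2, 81.9 and 63.7 in Tet2-WT. It rose by 1.17 in Tet2-KO against Tet2-WT (SE 0.29, limma adjusted p = 0.0484).

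Among the adaptors that pass the receptor signal on, Irs2 had 3830 and 2603 in Tet2-KO, 1675 and 1372 in Tet2-Mut, and 1168, 1373 and 1237 in Tet2-WT. Both Tet2-KO clones stood above the other 5 libraries. Irs2 rose by 1.33 against Tet2-WT (SE 0.16, limma adjusted p = 0.00594) and by 1.06 against Tet2-Mut (SE 0.18, limma adjusted p = 0.011). Irs1 had 220 and 155 in Tet2-KO, 111 and 71.4 in Tet2-Mut, and 63.2, 61.2 and 77.9 in Tet2-WT, and rose by 1.45 in Tet2-KO against Tet2-WT (SE 0.29, limma adjusted p = 0.0263). The Igf2 mRNA-binding proteins Igf2bp1, Igf2bp2 and Igf2bp3 passed no test in any comparison; Igf2bp1 had 42804 and 35626 in Tet2-KO, 35139 and 36386 in Tet2-Mut, and 29090, 30012 and 34494 in Tet2-WT.

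The calls for Igfbp3 and Irs2 held in both comparisons with each library left out. Those of Igf1r and Irs1 against Tet2-WT were lost without any 1 Tet2-WT sample or Tet2-KO replicate 1, and that of Igfbp7 without any 1 library of Tet2-KO or Tet2-WT (limma adjusted p up to 0.231), so the count in Tet2-KO against Tet2-WT was 2 without any 1 Tet2-WT sample or Tet2-KO replicate 1. The Igf1r call against Tet2-Mut was lost without Tet2-KO replicate 1, and the Insr call without Tet2-KO replicate 2, Tet2-Mut replicate 2 or any 1 Tet2-WT sample. The Igf2r call was lost without Tet2-Mut replicate 2 or any 1 Tet2-WT sample, where limma called 0 of the 19 and 1 to 5 had an unadjusted p under 0.05, and it was also lost in edgeR, which called 0; DESeq2 called 1. Without Tet2-Mut replicate 1, 7 of the 19 were called in Tet2-Mut against Tet2-WT and 11 in Tet2-KO against Tet2-Mut. The fibroblast sum given above moves with this group, being highest in Tet2-KO, and its part in these differences was not tested.

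**Figure D4:**
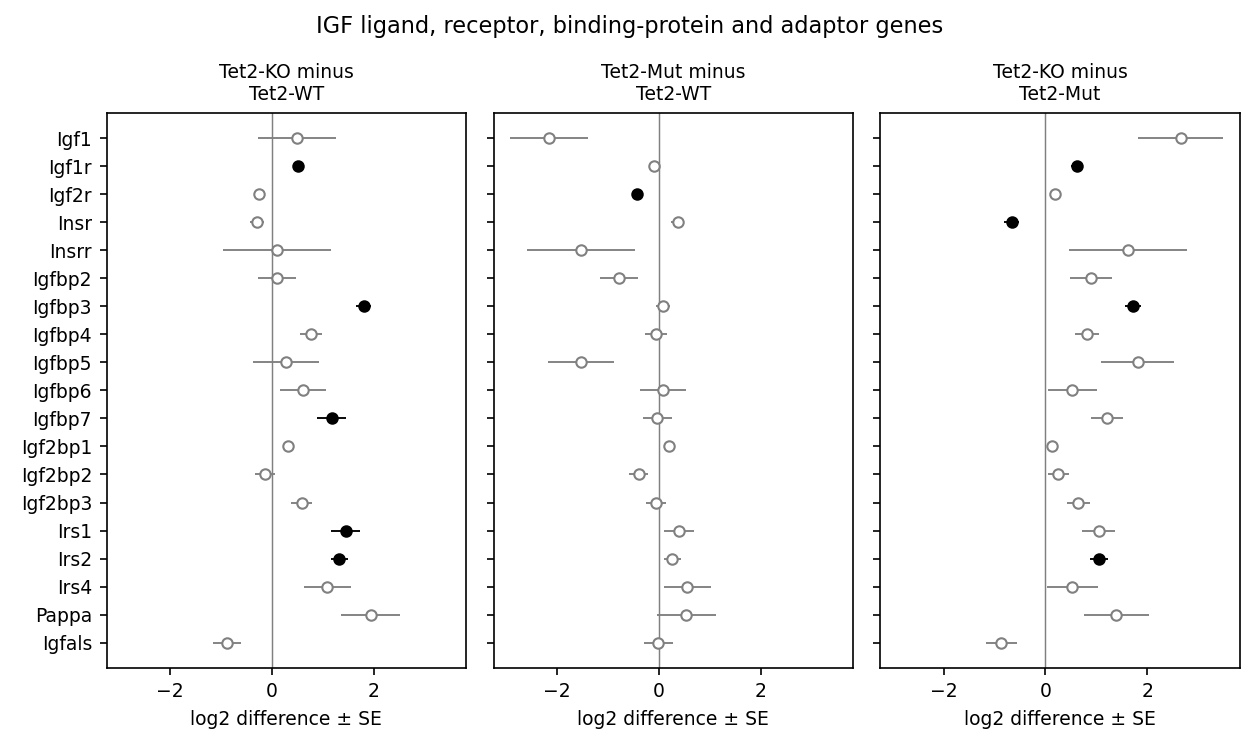
Log2 differences ± SE (limma) of 19 measured genes for IGF ligands, receptors, binding proteins and adaptors in Tet2-KO minus Tet2-WT, Tet2-Mut minus Tet2-WT and Tet2-KO minus Tet2-Mut; filled points had an adjusted p under 0.05. In Tet2-KO against Tet2-WT, 5 filled points lie to the right of 0, with Igfbp3 at 1.80, and in Tet2-Mut against Tet2-WT the only filled point is Igf2r at -0.43.

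Factors that set, read, keep or remove methylation at imprinting control regions made up a second list, with 25 of 25 genes measured. In each of the 3 comparisons 3 of the 25 (12.0%) passed the test, beside 5.91%, 3.43% and 6.19% of all genes tested, and the median log2 differences were 0.05 for Tet2-KO minus Tet2-WT, 0.13 for Tet2-Mut minus Tet2-WT and -0.01 for Tet2-KO minus Tet2-Mut. Tet2 itself is 1 of the calls in both comparisons of the knockout.

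Ctcf, the insulator protein that binds the unmethylated H19 control region, had normalized counts of 10104 and 9488 in Tet2-KO, 11911 and 12243 in Tet2-Mut, and 9624, 10129 and 10847 in Tet2-WT. It passed no test, though the Tet2-Mut clones lay above all other libraries (log2 difference 0.25 from Tet2-WT, limma adjusted p = 0.0906). Zfp57, a zinc-finger protein that protects methylated imprints, had 21694 and 19657 in Tet2-KO, 24087 and 31171 in Tet2-Mut, and 18866, 19484 and 21434 in Tet2-WT. The Tet2-Mut clones were again highest, with a log2 difference of 0.46 from Tet2-WT (limma adjusted p = 0.0542). Its corepressor Trim28 and the related protein Zfp445 passed no test in any comparison.

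Of the DNA methyltransferase genes, Dnmt3b, which lays down new methylation, had 54040 and 39689 in Tet2-KO, 28625 and 21915 in Tet2-Mut, and 20723, 21181 and 21243 in Tet2-WT. It rose by 1.14 in Tet2-KO against Tet2-WT (SE 0.14, limma adjusted p = 0.00564) and by 0.89 against Tet2-Mut (SE 0.15, limma adjusted p = 0.0111). Dnmt3a, the other enzyme of new methylation, had 12846 and 10455 in Tet2-KO, 12296 and 14903 in Tet2-Mut, and 8280, 8916 and 9582 in Tet2-WT. All mutant clones were above all Tet2-WT samples, and Dnmt3a rose by 0.60 in Tet2-Mut (SE 0.11, limma adjusted p = 0.0313), with 0.38 in Tet2-KO (limma adjusted p = 0.0825). Their cofactor Dnmt3l had 11791 and 9823 in Tet2-KO, 11232 and 7714 in Tet2-Mut, and 15496, 15289 and 16020 in Tet2-WT, and fell by 0.74 in Tet2-Mut (SE 0.14, limma adjusted p = 0.0323), with -0.54 in Tet2-KO (limma adjusted p = 0.0587). Dnmt3l overlaps Aire by 1324 bases, and Aire is described with the genes most like H19 below.

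Uhrf1, which guides the maintenance enzyme Dnmt1 to replicated DNA, fell by 0.30 in Tet2-Mut against Tet2-WT (SE 0.06, limma adjusted p = 0.0328). Uhrf1 had 18933 and 18812 in Tet2-Mut, against 23508, 23389 and 22933 in Tet2-WT. Dnmt1 passed no test, at 18329 and 20276 in Tet2-KO, 19630 and 19122 in Tet2-Mut, and 22595, 21424 and 21987 in Tet2-WT, although the mutant clones were all below the Tet2-WT samples. Tdg, a glycosylase that removes oxidised methylcytosine, rose by 0.34 in Tet2-KO against Tet2-WT (SE 0.08, limma adjusted p = 0.0419), and Tet1, the related dioxygenase, fell by 0.57 in Tet2-KO against Tet2-Mut (SE 0.09, limma adjusted p = 0.00787). Tet1 had 23681 and 22462 in Tet2-KO and 31464 and 37431 in Tet2-Mut, beside 27345, 26939 and 29189 in Tet2-WT.

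The Dnmt3b, Tet2 and Tet1 calls held with each library left out. Tdg was lost without any 1 Tet2-WT sample or Tet2-KO replicate 1, so that 2 of the 25 were called there in Tet2-KO against Tet2-WT. That count was 8 without either Tet2-Mut replicate and 5 without Tet2-KO replicate 2. The Dnmt3a, Dnmt3l and Uhrf1 calls were lost without Tet2-Mut replicate 2 or any 1 Tet2-WT sample (limma adjusted p up to 0.173), which left limma with 0 of the 25 called and 6 to 10 at an unadjusted p under 0.05; edgeR and DESeq2 on all libraries called 4 and 5. Without Tet2-Mut replicate 1, 9 of the 25 were called in Tet2-Mut against Tet2-WT and 9 in Tet2-KO against Tet2-Mut.

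A further list held genes reported to depend on H19, namely members of the imprinted gene network that H19 restrains in the mouse embryo and reported targets of miR-675. Of its 18 genes 17 were measured and Dcn was not in the table; the list shares Igf1r and Igf2r with the pathway list. Of the 17, 5 rose and 0 fell in Tet2-KO against Tet2-WT (29.4%, beside 5.91% of all genes tested), with a median of 0.24. In Tet2-Mut against Tet2-WT, 0 rose and 2 fell (11.8%, beside 3.43%), with a median of 0.20. In both of these comparisons 11 of the 17 had a positive difference. At an unadjusted p under 0.05 stood 9 of the 17 in each, beside 4019 and 3651 of the 17338 genes tested. In Tet2-KO against Tet2-Mut, 3 rose and 1 fell (23.5%, beside 6.19%), with a median of 0.08.

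Of the imprinted genes in the network, Mest, a paternally expressed hydrolase-like protein gene, had normalized counts of 5079 and 3946 in Tet2-KO, 3698 and 4958 in Tet2-Mut, and 2690, 2840 and 2961 in Tet2-WT. All 4 mutant clones were above all 3 Tet2-WT samples, with 0.66 in Tet2-KO (SE 0.14, limma adjusted p = 0.0292) and 0.60 in Tet2-Mut (SE 0.14, limma adjusted p = 0.0529), of which the first passed the test. Mest overlaps Copg2 by 913 bases, so some reads may belong to Copg2. Dlk1, a paternally expressed Notch-like surface protein gene named after its values were seen, had 356 and 172 in Tet2-KO, 198 and 266 in Tet2-Mut, and 98.2, 102 and 113 in Tet2-WT. It showed the same layout, with 1.24 in Tet2-KO (SE 0.30, limma adjusted p = 0.0485) and 1.13 in Tet2-Mut (SE 0.30, limma adjusted p = 0.0791).

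Plagl1, an imprinted zinc-finger factor that acts on the network, rose by 1.13 in Tet2-KO against Tet2-WT (SE 0.24, limma adjusted p = 0.0314), with 339 and 207 in Tet2-KO, against 127, 109 and 125 in Tet2-WT. Peg3, a paternally expressed zinc-finger gene, had 7830 and 6328 in Tet2-KO, 4535 and 3038 in Tet2-Mut, and 6235, 5748 and 5970 in Tet2-WT. It fell by 0.69 in Tet2-Mut against Tet2-WT (SE 0.15, limma adjusted p = 0.049) and rose by 0.92 in Tet2-KO against Tet2-Mut (SE 0.17, limma adjusted p = 0.0151). Cdkn1c, the imprinted cell cycle inhibitor that is also 1 of the 26 neighbours, had 1250 and 836 in Tet2-KO, 1296 and 1606 in Tet2-Mut, and 955, 786 and 905 in Tet2-WT, with no call.

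Outside the imprinted genes, Hmga2, a chromatin protein of embryonic cells, had 2175 and 1445 in Tet2-KO, 1039 and 748 in Tet2-Mut, and 628, 738 and 686 in Tet2-WT. It rose by 1.38 in Tet2-KO against Tet2-WT (SE 0.19, limma adjusted p = 0.00896) and by 1.01 against Tet2-Mut (SE 0.21, limma adjusted p = 0.0255). Smad1, a mediator of BMP signals reported as a target of miR-675, fell by 0.51 in Tet2-KO against Tet2-Mut (SE 0.12, limma adjusted p = 0.0382), with 1059 and 981 in Tet2-KO and 1327 and 1593 in Tet2-Mut. Of the other reported targets, Smad5, Cdc6, Rb1 and Tgfbi passed no test in any comparison.

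These calls rested on few libraries. In Tet2-KO against Tet2-WT those of Mest, Dlk1, Plagl1 and Igf1r were lost without any 1 Tet2-WT sample or Tet2-KO replicate 1 and that of Hmga2 without Tet2-KO replicate 1 or Tet2-WT replicate 1 or 3, so limma called 1 of the 17 without Tet2-WT replicate 2 and 0 without each of the other 3 (7 to 8 at an unadjusted p under 0.05). The Tet2-Mut calls were lost without Tet2-Mut replicate 2 or any 1 Tet2-WT sample, where limma called 0 (8 to 9 at an unadjusted p under 0.05); without either Tet2-KO replicate it called 5, and without Tet2-Mut replicate 1 it called 8. In Tet2-KO against Tet2-Mut the call of Peg3 was lost without Tet2-KO replicate 1, that of Hmga2 without Tet2-KO replicate 1, Tet2-Mut replicate 2 or any 1 Tet2-WT sample, and that of Smad1 without any 1 library but Tet2-Mut replicate 1. There limma called 0 without Tet2-KO replicate 1 (6 at an unadjusted p under 0.05), 6 without Tet2-Mut replicate 1 and 2 without any 1 Tet2-WT sample. With all libraries edgeR called 5, 1 and 4 in the 3 comparisons in the order given, beside 1110, 582 and 1054 genes in all. DESeq2 called 6, 7 and 6, beside 1992, 1555 and 1808 genes in all. The fibroblast sum moves with the Tet2-KO values here as well, and its part was not tested.

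The genes whose pattern over the 7 libraries was most like that of each member were found by the root mean square difference of log2 values, each taken from its own Tet2-WT mean, among 12420 genes with a mean of at least 50 and no predicted-gene or clone name. For H19 these were Nlrp4a (0.82), Cdc42ep2 (0.93), Grin1 (0.96), Aire (1.04) and Grin1os (1.07), where a gene with no difference between libraries would stand at 2.90. Nlrp4a, a gene of the NLR family active in oocytes, had 20.6 and 53.8 in Tet2-KO, 4.12 and 1.93 in Tet2-Mut, and 126, 97.9 and 62.6 in Tet2-WT. It kept the H19 order of groups, with no overlap. Cdc42ep2, an effector of the small GTPase Cdc42, had 51.6 and 103 in Tet2-KO, 33.0 and 25.1 in Tet2-Mut, and 313, 281 and 220 in Tet2-WT, also without overlap.

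Grin1, an NMDA receptor subunit gene, had 92.9 and 402 in Tet2-KO, 302 and 96.5 in Tet2-Mut, and 1911, 1304 and 1176 in Tet2-WT, so its 2 mutant genotypes overlapped while both lay below Tet2-WT. Aire, the autoimmune regulator, likewise overlapped between the mutant genotypes, at 889 and 1421 in Tet2-KO, 949 and 297 in Tet2-Mut, and 5265, 4599 and 3544 in Tet2-WT. Grin1os overlaps Grin1 by 7403 bases, so these are not separate examples. Since all 5 were picked for their likeness to H19, their group differences are no further evidence on it.

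For Igf2 the nearest genes were Slc5a5 (0.27), Selenon (0.27), Dusp8 (0.28), Prtg (0.30) and Slc7a11 (0.31), beside 0.67 for a gene with no difference between libraries. A total of 4976 of the 12420 genes lay nearer to Igf2 than that, and 5777 of them lay nearer to H19 than its own value of 2.90. Slc5a5, the sodium iodide symporter gene, had 1286 and 840 in Tet2-KO, 442 and 766 in Tet2-Mut, and 661, 570 and 597 in Tet2-WT. Its Tet2-KO clones lay above the other libraries, and the higher clone of each mutant genotype was the higher one for Igf2 too. These nearest genes were picked for their likeness to Igf2, so such matches are no further evidence on it. Dusp8, a phosphatase gene of MAP kinases and 1 of the 26 neighbours, had 130 and 91.0 in Tet2-KO, 43.2 and 84.9 in Tet2-Mut, and 61.6, 41.4 and 63.7 in Tet2-WT.

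**Figure D5:**
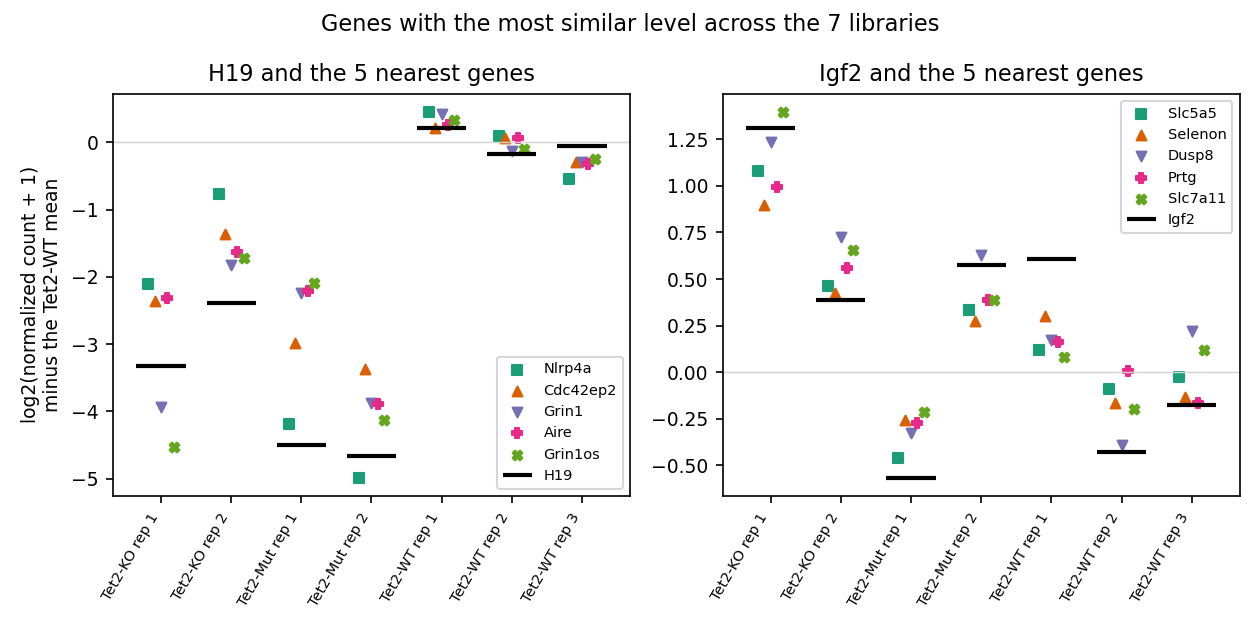
Log2(normalized count + 1) minus the Tet2-WT mean in each of the 7 libraries for H19 (left, black bars) and the 5 genes nearest to it, and for Igf2 (right, black bars) and the 5 genes nearest to it. H19 lies below all 5 of its near genes in Tet2-KO replicate 2 and Tet2-Mut replicate 1, and the Igf2 set is highest in Tet2-KO replicate 1 and lowest in Tet2-Mut replicate 1 or Tet2-WT replicate 2.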

How the data were processed

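RNA-seq was used for 7 libraries of mouse ESCs; the 3 bisulfite and 18 CUT&Tag samples were left out. The deposited values are normalized counts made by the authors, a linear signal of gene counts divided by size factors. Per the submitters' processing notes mm10 was the build and the tools named include DESeq2, featureCounts, STAR 2.7.3a and Trim Galore 0.6.5. Annotation and strand setting: not given in the sources used here. Each value was a whole multiple of 1 step per library within 0.01 reads, so whole reads were recovered (41.9 M to 58.5 M per library). Of the values from 1 to 20 reads, 72.1% to 75.2% were even, so mates may be counted separately. Every gene had at least 71 reads in all, so the table had been filtered. Libraries of a group differed by more than sampling noise (chi-square over its degrees of freedom of 7.19 or more).

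Genes were compared with limma 3.58.1 (R 4.3.3), using log2(normalized count + 1) of the 17338 genes at 10 or more in at least 2 libraries. The 3 group means were fitted together on the 7 libraries, with a prior that follows the mean, residual degrees of freedom of 4 and prior degrees of freedom of 5.03. A gene was called at a Benjamini-Hochberg adjusted p under 0.05 over all genes tested. Fold changes on this scale understate those of low genes. The group means share an estimate of the spread. H19 and Igf2 received no test. Gene positions are those of RefSeq GRCm38.p6, which matched 16103 genes (92.9%). Alternatives included edgeR 4.0.16 and DESeq2 1.42.0 on the recovered reads, other pseudocounts, filters and scalings, a replicate block and leaving out each library.

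The members and the gene lists were chosen with earlier results of these data known. Named genes are the members, Tet2, neighbours within 1 Mb of H19 that passed the test with the 2 nearest measured on each side, up to 4 genes with the smallest p per list and comparison, and the 5 nearest genes in likeness, leaving out predicted genes. Igfbp7, Dlk1 and the list genes named without a call were added after their values were seen.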

Additional observations from a re-analysis of the deposited data

How the results depend on the processing

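The H19 differences kept their sign under every alternative run. Across the 11 settings that keep all libraries, H19 ranged from -2.88 to -2.79 for Tet2-KO minus Tet2-WT, from -4.60 to -4.48 for Tet2-Mut minus Tet2-WT and from 1.65 to 1.80 for Tet2-KO minus Tet2-Mut. With 1 library left out, H19 ranged from -3.32 to -2.39, from -4.66 to -4.47 and from 1.26 to 2.18 in the same order. Igf2 ranged from 0.76 to 0.86, from -0.08 to 0.07 and from 0.78 to 0.85 over the settings with all libraries. With 1 library left out, Igf2 ranged from 0.39 to 1.31, from -0.57 to 0.57 and from 0.27 to 1.42.

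The counts of called genes depended on how the spread was estimated; the cause was not tested. With 1 library left out, limma called 85 to 2160 genes in Tet2-KO against Tet2-WT, 6 to 2198 in Tet2-Mut against Tet2-WT and 530 to 2679 in Tet2-KO against Tet2-Mut. The neighbours called ranged from 0 to 5, 0 to 5 and 1 to 3, the IGF pathway genes from 2 to 7, 0 to 7 and 3 to 11, the imprinting factors from 2 to 8, 0 to 9 and 3 to 9, and the H19-dependent genes from 0 to 7, 0 to 8 and 0 to 6. Beside these counts of 0, between 1 and 10 members had an unadjusted p under 0.05.

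In Tet2-KO against Tet2-WT, DESeq2 called 1992 genes, with 5 neighbours, 10 pathway genes and 6 imprinting factors; edgeR called 2 neighbours. A fit of only the 2 groups called 2159 genes, 5 neighbours and 8 imprinting factors. A prior with no mean trend called 19 genes and 0 members of each of the 4 lists (7 to 9 at an unadjusted p under 0.05). A pseudocount of 10 and quantile normalization each called 2 neighbours.

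In Tet2-Mut against Tet2-WT, DESeq2 called 1555 genes, with 5 neighbours, 5 imprinting factors and 7 H19-dependent genes. By edgeR, 0 pathway genes (3 at an unadjusted p under 0.05) and 1 H19-dependent gene were called. A fit of only the 2 groups called 900 genes, 4 neighbours and 5 H19-dependent genes. With no mean trend limma called 0 genes (3018 at an unadjusted p under 0.05) and 0 of each list (2 to 8). A pseudocount of 0.5 and upper quartile scaling each gave 0 pathway genes (4 at an unadjusted p under 0.05) and 1 H19-dependent gene, quantile normalization gave 1 H19-dependent gene, and a pseudocount of 10 gave 2 neighbours.

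In Tet2-KO against Tet2-Mut, DESeq2 called 1808 genes, with 2 neighbours, 7 pathway genes and 5 imprinting factors. A fit of only the 2 groups, with 2 clones each, called 0 genes (2357 at an unadjusted p under 0.05) and 0 of each list (2 to 10), where edgeR on all libraries called 1054 genes. With no mean trend limma called 10 genes and 0 of each list (2 to 10). A pseudocount of 10, a mean of at least 50 and upper quartile scaling each gave 2 neighbours.

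The replicate numbers name clones or samples and are not stated to pair them. Deviations of same-numbered libraries from their group means correlated at -0.073 to 0.087. With 2 clones in a mutant group the deviations mirror each other, so these values cannot decide whether the numbers pair the samples. With the replicate block limma called 15, 7 and 467 genes in the 3 comparisons in the order above. It called 0 neighbours, 1 pathway gene and 0 H19-dependent genes in Tet2-KO against Tet2-WT (6 to 8 at an unadjusted p under 0.05 beside each 0), 0 of each of the 4 lists in Tet2-Mut against Tet2-WT (5 to 9), and 2 pathway genes and 1 H19-dependent gene in Tet2-KO against Tet2-Mut. Of the fibroblast markers it called 0 (17 at an unadjusted p under 0.05) and 0 (7) in the comparisons with Tet2-WT and 3 in Tet2-KO against Tet2-Mut, and of the trophoblast markers 0 (4), 0 (8) and 5. With no mean trend limma called 0 of the fibroblast markers (16, 5 and 7) and 0 of the trophoblast markers (3, 7 and 7) in the 3 comparisons. With only the 2 groups compared, Tet2-KO against Tet2-Mut had 0 of the trophoblast markers (7) and 0 of the fibroblast markers (8) called.

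Each value of H19 rests on 116 or more reads and each of Igf2 on 137 or more. These stand for fewer independent fragments if mates were counted separately, and some Igf2 reads may belong to Igf2os. A further limit is the number of lines: 2 clones for each mutant genotype. A count of 3 reads corresponds to a normalized count of 2.5 to 3.54, so the lowest values of some genes, such as Muc2 and Nlrp4a, lie below that floor. Allele, isoform and microRNA levels were not measured.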
